A study of Caenorhabditis elegans with 2 samples.

Results

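The 10 genes described here code for GATA transcription factors of the Caenorhabditis elegans embryo. This family is named for binding DNA at the letters GATA through a zinc finger, though the site known for MED-1 and MED-2 is AGTATAC. The 10 genes were taken by name from the 19985 protein-coding genes of the annotation. Known from the gut lineage are med-1, med-2, end-1, end-3, elt-2 and elt-7, and from the epidermis elt-1, elt-3, egl-18 and elt-6. The data are chromatin immunoprecipitation followed by sequencing with an anti-GFP antibody, from whole late embryos of mixed sex taken 6 hours after egg bleaching. The strain, OP677, carries the allele unc-119(tm4063) and the insertion wgIs677, from which CHE-1, a zinc finger factor known for specifying the ASE taste neurons, is made with GFP and FLAG fused to its C terminus. Both samples are biological replicates of this 1 group, so no groups were compared, and whole embryos do not tell which cells a region comes from. With neither an untagged strain nor a control library among the data used, binding of CHE-1 and recovery without it cannot be told apart.

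In the worm, MED-1 and MED-2 act at the start of gut formation and, with the maternal factor SKN-1, turn on end-1 and end-3. END-1 and END-3 commit cells to the gut, and ELT-2 and ELT-7 then run intestinal genes. ELT-1 commits cells to the epidermis, ELT-3 acts in differentiating epidermal cells, and EGL-18 and ELT-6 maintain the seam cells, a row of epidermal stem-like cells along each side of the animal.

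A gene's window ran from 2 kb upstream of its start to its end, and a region belonged to the gene when its summit, the peak position given by the authors, lay in the window. Each longer list of the authors held 30000 regions, with background regions kept: 1 list per replicate and 1 called on both replicates together. Regions were ranked within a list by the authors' score, which has no stated scale, with rank 1 the highest. The lowest listed score was 32.9 in the list of both replicates, 20.8 in replicate 1 and 17.3 in replicate 2, so a gene without a listed region has no value rather than a value of 0. The set thresholded by the irreproducible discovery rate (IDR set, regions ranked alike in the replicates) held 791 regions, which were those ranked 1 to 791 in the list of both.

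Regions lay at the epidermal genes, most of them at the neighbouring egl-18 and elt-6, and were almost lacking at the gut genes. The IDR set had a region at 1 of the 10 genes, egl-18, where 4.29% of all protein-coding genes had one. The list of both replicates had regions at 5 of 10, against 60.2% of all genes: all 4 epidermal genes and, of the 6 gut genes, elt-7 alone. Replicate 1 listed regions at 7 of 10 genes (62.6% of all genes) and replicate 2 at 5 of 10 (63.6%). In these lists the share of members is thus near that of genes in general. Within the family the tissues differed in density, mostly through egl-18 and elt-6. The 6 gut windows, 20.9 kb in all, held 1 region of the list of both, or 0.0478 per kb. The 4 epidermal windows, 38.8 kb in all, held 23, or 0.618 per kb, where all protein-coding windows had 0.309 per kb. This density counts the 1 region shared by egl-18 and elt-6 at each. Of the 23 regions, 19 lay in the windows of egl-18 and elt-6, while elt-1 had 0.412 and elt-3 0.12 per kb. In the same list elt-3 was thus below the gut gene elt-7, which had 0.226 per kb. In replicate 1 the gut windows held 0.144 and the epidermal windows 0.824 regions per kb, and in replicate 2 the values were 0.0478 and 0.747. The order of the tissues was therefore alike in both libraries, but it rests on a few genes, which were chosen with earlier results of these data known, and it was not tested.

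**Figure D1:**
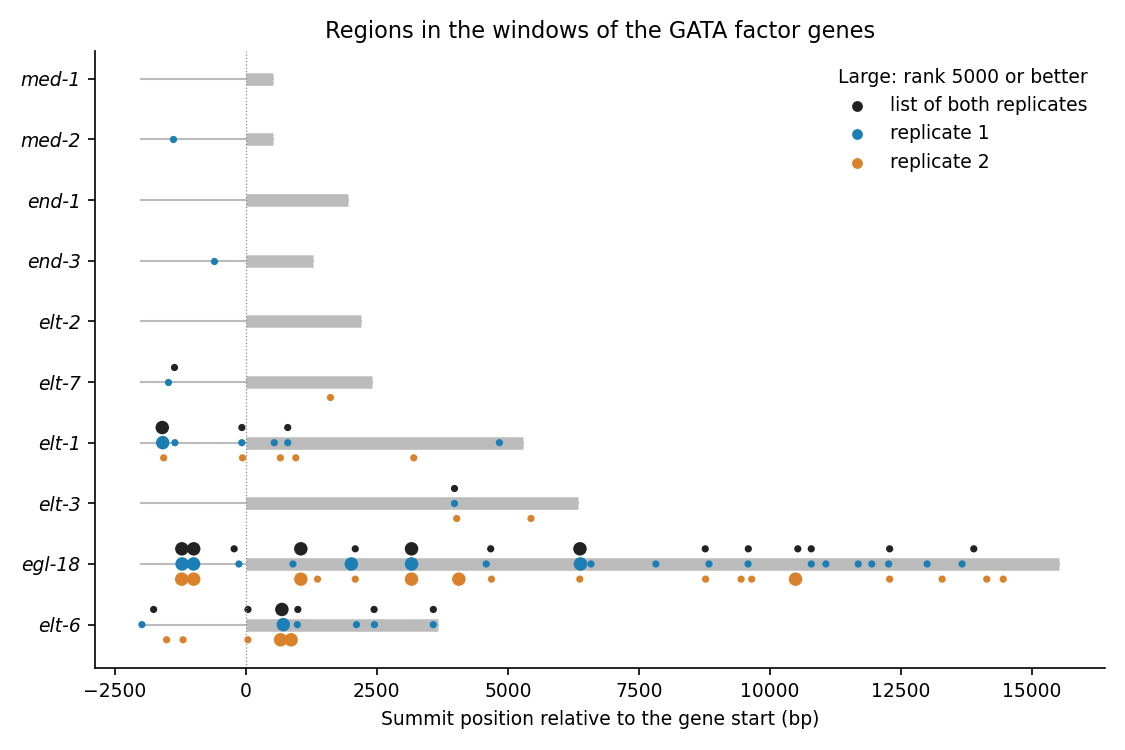
Summit positions of all listed regions in the 10 gene windows, in bp from the gene start, with the gene as a thick bar and the upstream 2 kb as a thin line. Black, blue and orange points are the list of both replicates, replicate 1 and replicate 2, and large points have rank 5000 or better. Points crowd along egl-18, elt-6 and elt-1, while med-1, end-1 and elt-2 have none.

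The strongest regions all came from 3 epidermal genes. In the list of both replicates 7 regions of rank 5000 or better lay at egl-18, elt-6 and elt-1, so 3 of the 10 genes had one, against 20.1% of all genes. The sequences of the 6 highest, with 50 bases on either side of the summit, are shown because these regions carry the result, on the plus strand of ce11, which is also the strand of the genes. Capitals mark GATAA on either strand, a form of the site bound by GATA factors other than MED-1 and MED-2. Other stretches with GATA, such as GATAG, were neither searched nor marked, here or below. A window without capitals can therefore still hold one, as that of elt-1 does.
egl-18 summit at -1222, chrIV:1901050-1901150: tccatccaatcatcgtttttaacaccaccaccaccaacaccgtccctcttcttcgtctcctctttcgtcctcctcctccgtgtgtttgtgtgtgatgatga
egl-18 summit at 3162, chrIV:1905434-1905534: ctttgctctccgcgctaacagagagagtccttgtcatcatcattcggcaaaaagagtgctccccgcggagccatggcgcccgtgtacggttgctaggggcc
elt-6 summit at 687, chrIV:1918614-1918714: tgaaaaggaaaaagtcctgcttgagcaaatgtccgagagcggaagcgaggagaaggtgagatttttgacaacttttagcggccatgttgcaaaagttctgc
egl-18 summit at 6377, chrIV:1908649-1908749: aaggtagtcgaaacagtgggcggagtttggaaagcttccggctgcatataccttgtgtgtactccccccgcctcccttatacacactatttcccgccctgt
elt-1 summit at -1596, chrIV:9613349-9613449: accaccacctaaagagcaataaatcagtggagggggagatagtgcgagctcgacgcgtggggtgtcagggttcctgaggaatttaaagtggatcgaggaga
egl-18 summit at -996, chrIV:1901276-1901376: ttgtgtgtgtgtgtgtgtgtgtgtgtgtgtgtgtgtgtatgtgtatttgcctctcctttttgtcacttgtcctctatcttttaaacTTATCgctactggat
Positions in bp are from the gene start, negative upstream. Only the last of these 6 holds GATAA. That window also holds an uninterrupted TG repeat of 37 bases, a length reached in 0.0533% of the 30000 regions. The repeat was noticed after the sequences had been seen.

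egl-18, whose product keeps seam cells from fusing with the epidermis, had the only IDR region of the family. The gene lies on chromosome IV at 1902322 to 1917840, and the region at 1900858 to 1901341 has its summit 1222 bp upstream of the start. Its score was 136 in the list of both (rank 675), 78.7 in replicate 1 (rank 704) and 57.0 in replicate 2 (rank 1003). The region is thus near the top of both replicates, and their summits lay 5 and -3 bp from that of the joint list. An annotated non-coding RNA gene, F55A8.6, lies within 100 bp of this summit. With rank 675 of 791 it belongs to the weaker part of the IDR set, and egl-18 stood in place 744 when all protein-coding genes were ordered by their highest region.

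The egl-18 window, 17.5 kb long, held 14 regions of the list of both, 19 of replicate 1 and 17 of replicate 2. As many as 14 were found in 108 of the 19985 genes, and as many per kb (0.799) in 7.45% of them. Of the 14, 11 lay in introns and 3 upstream. The longest transcript begins with a short first exon and a first intron that reaches to 11132 bp, where its second exon and also a shorter transcript start. That intron held 9 of the 11 intronic summits.

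The next strongest regions of egl-18 were not ranked alike by the replicates. The one at 3162 bp (score 116, rank 1014) had a score of 45.0 and rank 4151 in replicate 1 and a score of 70.0 and rank 572 in replicate 2. It was the highest egl-18 region of replicate 2, and the non-coding RNA gene F55A8.5 lies within 100 bp of its summit. The one at 6377 bp (score 99.9, rank 1474) went the other way, with a score of 67.9 and rank 978 in replicate 1 and a score of 33.3 and rank 6421 in replicate 2. The non-coding RNA gene F55A8.4 lies within 100 bp of that summit. The one at 1049 bp (score 70.6, rank 4754) had rank 14295 in replicate 1, with the matched summit at 899 bp, and rank 1815 in replicate 2. Such shifts of 6.57 to 7.88 times in rank exceed the median of 2.49 among the 4623 matched regions of rank 5000 or better, but lie below their ninetieth percentile of 10.1. The one at -996 bp (score 85.7, rank 2450) was steadier, with scores of 43.2 and 42.3 and ranks 4767 and 2794 in replicates 1 and 2.

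The other 9 regions of egl-18 scored from 35 to 69.2 in the list of both. The one at 10535 bp (score 69.2, rank 5091), 589 bp upstream of the start of a shorter transcript, had a score of 47.0 and rank 1957 in replicate 2 and no match in replicate 1. The one at 2088 bp (score 64.6, rank 6453) had scores of 47.0 and 33.7 and ranks 3504 and 6117 in replicates 1 and 2. Upstream at -224 bp, the region nearest the annotated start had rank 20536 and was matched in replicate 1 but not in replicate 2. Those at 4673, 8768, 9590 and 12288 bp had ranks 22503, 6586, 12047 and 17091 and were matched in each replicate. The one at 10792 bp (rank 27211) was matched in replicate 1 alone. Replicate 2 also listed a region at 4065 bp (score 35.9, rank 4947) that replicate 1 and the list of both lacked.

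elt-6, a paralog that works with egl-18 in seam cells, begins 136 bp after the end of egl-18 and is read in the same direction, at 1917977 to 1921643. Its window held 6 regions, or 1.06 per kb, a density reached by 2.24% of genes. The highest lay at 687 bp in a coding exon, with a score of 105 (rank 1269). Its scores were 56.9 in replicate 1 and 47.5 in replicate 2, with ranks 1721 and 1881, the closest pair of ranks among the 7 strong regions. A second, 992 bp from the start in an intron, had a score of 63.2 (rank 6910) and ranks 12885 and 2732. The match in replicate 2 had its summit at 863 bp. A summit at 40 bp, in the first coding exon, had a score of 40.6 (rank 21115) and was matched in replicate 2 alone. Those at 2447 bp (score 40.7, rank 21013) and 3578 bp (score 33.5, rank 29276) were matched in replicate 1 alone. The region 1761 bp upstream of elt-6 (rank 27355) lies in an intron of egl-18 and is counted once below. It was matched in neither replicate, since no replicate summit lay within 200 bp. Each replicate did list an overlapping region, of rank 11119 in replicate 1 and rank 5447 in replicate 2.

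**Figure D2:**
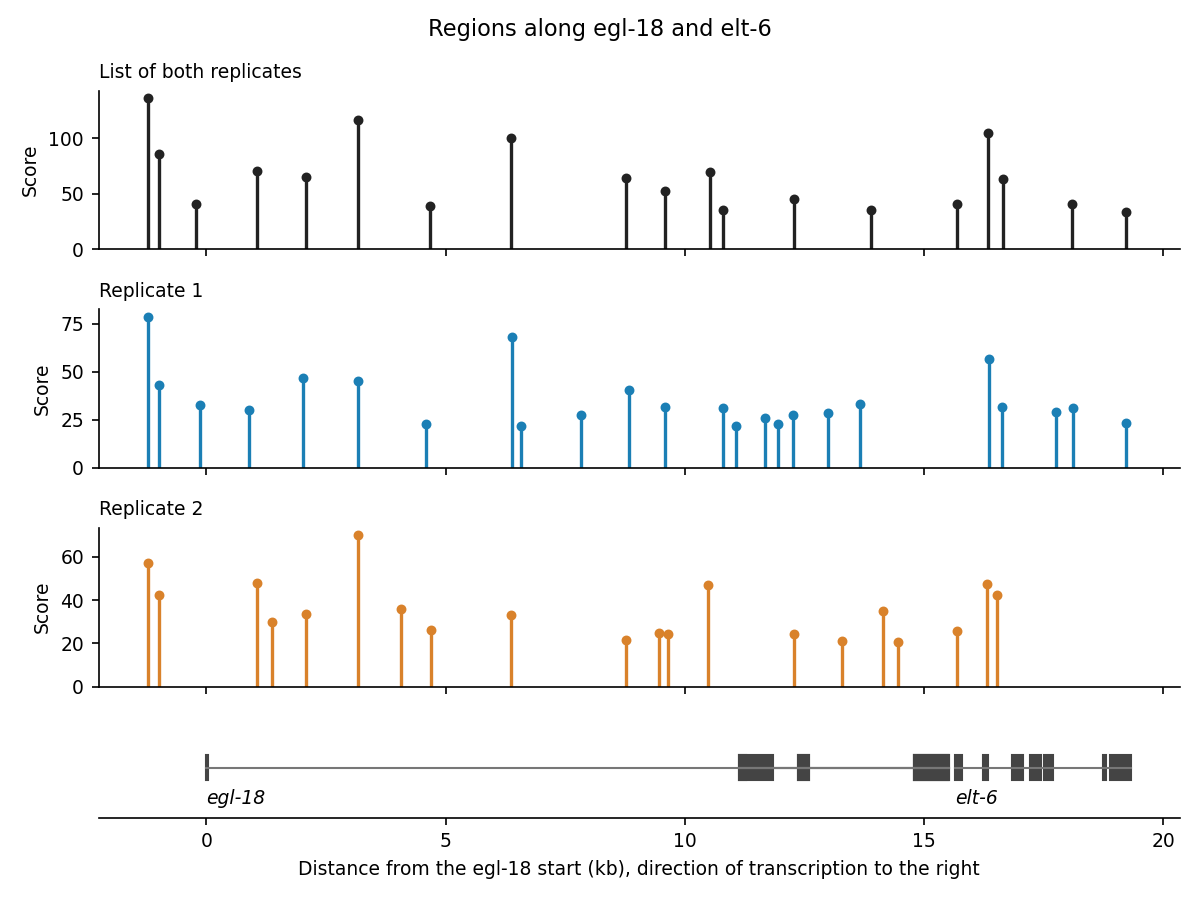
Score of each region (vertical lines, the authors' value) by distance of its summit from the egl-18 start in kb, in the list of both replicates, replicate 1 and replicate 2. Boxes in the lowest panel are annotated exons of all transcripts. The region 1222 bp upstream of egl-18 is high in every panel, while that at 3162 bp is ranked higher in replicate 2 and that at 6377 bp in replicate 1.

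Together the windows of egl-18 and elt-6 cover 21.3 kb and held 19 of the 24 distinct regions of the family, or 0.891 per kb, against 0.299 per kb over the nuclear genome. Of rank 5000 or better they held 6, or 0.281 per kb against 0.0496. Replicate 1 had 24 regions there and replicate 2 had 20. Without these neighbouring genes the family had 5 regions, of which 1 was of rank 5000 or better, so most counts for the family describe this locus.

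elt-1, which commits cells to the epidermis, had 3 regions in the list of both, 6 in replicate 1 and 5 in replicate 2, in a window of 7.29 kb on chromosome IV. The highest, 1596 bp upstream, had a score of 90.8 (rank 2031). It rested mainly on replicate 1, with a score of 55.6 and rank 1874 there against a score of 25.3 and rank 14164 in replicate 2. The region 76 bp upstream of the start had a score of 54.1 (rank 10957), with ranks 19927 and 22880 in the replicates. The one at 799 bp, in an intron and 196 bp upstream of the start of a shorter transcript, had a score of 65.0 (rank 6321) and ranks 8324 and 10645.

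elt-3, which acts in the differentiating epidermis, lies on chromosome X at 13934874 to 13941216. It had 1 region in the list of both, 3967 bp from the start in a coding exon and 98 bp past the start of a shorter transcript. Its score was 54.3 (rank 10826), with 28.7 (rank 16311) in replicate 1 and 26.3 (rank 12781) in replicate 2. Replicate 2 listed another region at 5442 bp (score 31.2, rank 7870) that replicate 1 and the list of both lacked. With 0.120 regions per kb in the list of both, elt-3 lay below the 0.309 of all protein-coding windows, unlike the other 3 epidermal genes.

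**Figure D3:**
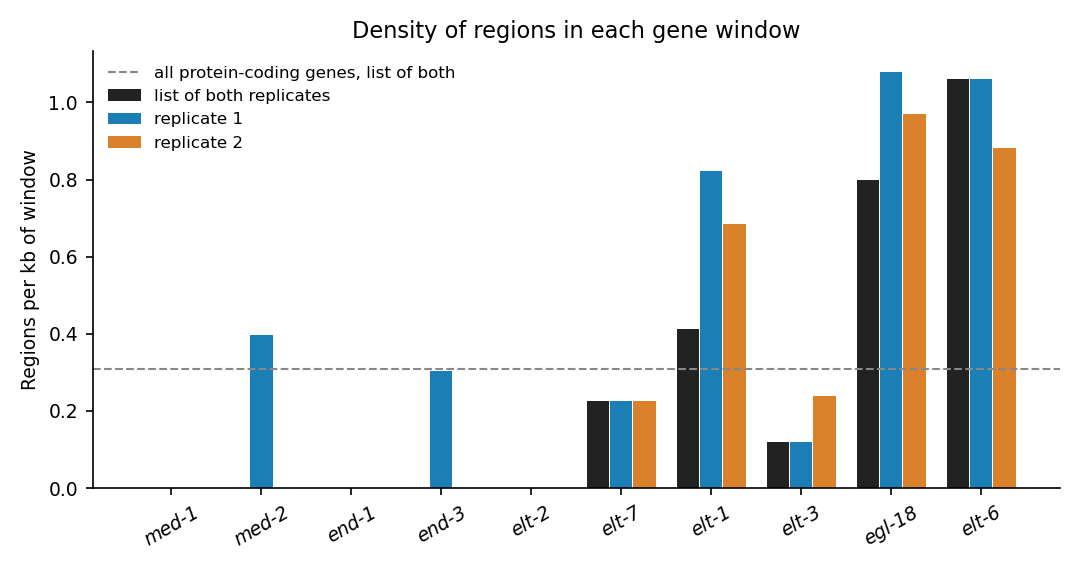
Regions per kb of window at each gene, with bars for the list of both replicates, replicate 1 and replicate 2, and a dashed line at the value over all protein-coding genes in the list of both (0.309). Bars for egl-18, elt-6 and elt-1 pass the line in every list, those for elt-3, elt-7 and end-3 stay under it, med-2 passes it in replicate 1 alone, and med-1, end-1 and elt-2 have no bar.

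At the gut genes, elt-7, which backs up elt-2 in the intestine, had a weak region 1373 bp upstream with a score of 46.8 (rank 15665). It was matched in replicate 1 (score 32.7, rank 11630) and not in replicate 2, and its summit lies inside the neighbouring gene C18G1.9, 436 bp from that gene's start. Replicate 2 instead listed a region at 1601 bp in an intron of elt-7 (score 26.3, rank 12865). The replicates thus both counted elt-7, at different places.

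end-3, which commits cells to the gut, had a region 605 bp upstream in replicate 1 (score 38.7, rank 6960) that neither replicate 2 nor the list of both listed. Just outside its window, 2373 bp upstream, lay a stronger region with a score of 84.2 (rank 2605), a score of 60.2 and rank 1425 in replicate 1 and a score of 22.9 and rank 17947 in replicate 2. The start nearest to that summit is that of aip-1. With windows reaching 5 kb upstream end-3 would count as a sixth gene with a region.

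med-2, an early mesendoderm gene on chromosome III at 6884503 to 6885027, had a region 1383 bp upstream in replicate 1 (score 28.8, rank 16150) and none in the other lists. med-1, end-1 and elt-2 had no region in any list. For elt-2, the main regulator of intestinal genes, the nearest summit of the list of both lay 20014 bp from the start. For end-1 it lay 10722 bp and for med-1 7468 bp away. med-1 and med-2, both 525 bp long, share 97.5% of their bases, and 53.8% of the 32-base stretches in each gene occur more than once in the genome, against 8.55% genome-wide. Over their whole windows that share was 12.3%, and its part in the lack of regions there was not tested. In elt-2 it was 0% and in end-1 2.81%, so the windows of these genes held few or no repeated stretches.

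Most of the family's regions in the list of both, which was called on both replicates together, were matched in each replicate. Of the 24 distinct regions of the list of both, 16 had an overlapping region with a summit within 200 bp in each replicate, where 43.0% of all 30000 did. All 7 of rank 5000 or better did so, where 92.5% of all such regions did. Of the 17 with a rank above 5000, 9 did so, where 33.1% of all such regions did, and these differences were not tested. Replicate 1 matched 21 and replicate 2 matched 18, and the median rank of the 24 in the list of both was 8868. Matched in each replicate were 19 of the 24 with any overlap of 1 bp and 13 with summits within 100 bp. The replicates' own lists held 34 regions (replicate 1) and 28 (replicate 2) in the member windows, some of them listed by 1 replicate alone.

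**Figure D4:**
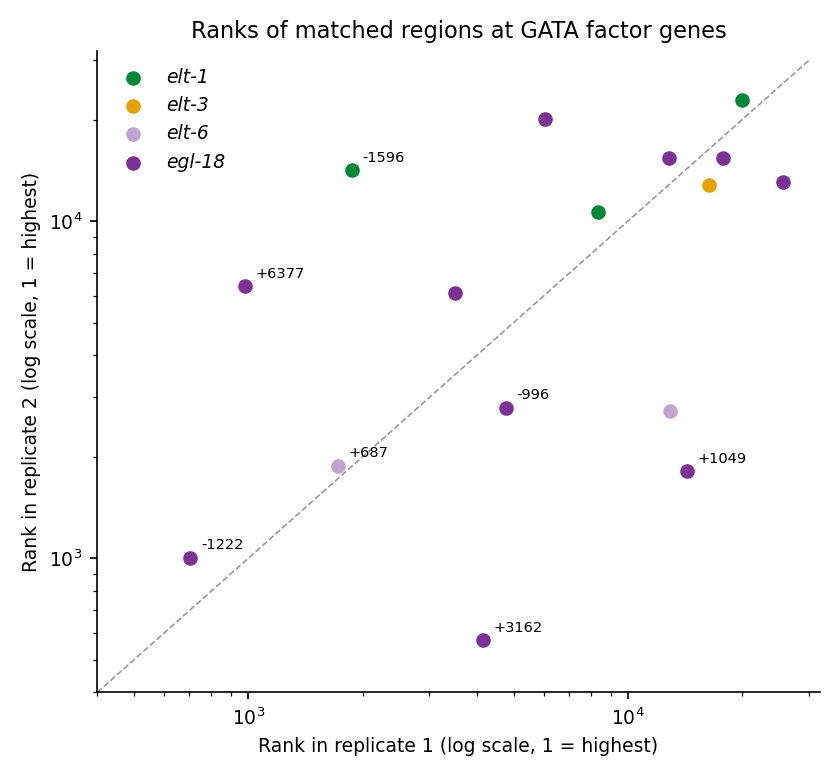
Rank in replicate 1 against rank in replicate 2 (log scales, 1 is the highest) for the 16 regions matched in each replicate, coloured by gene. The dashed line marks equal ranks, and numbers give the distance from the gene start in bp for the 7 regions of rank 5000 or better. The regions at -1222 and 687 bp lie near the line, and 4 of the 7 lie far from it, on either side.

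Of the 24 summits, 2 lay within 500 bp upstream of the annotated start of their gene, 76 bp from that of elt-1 (rank 10957) and 224 bp from that of egl-18 (rank 20536), where 16.2% of all regions in gene windows lay so. With the list of replicate 2 alone the count was 1. When the start of any transcript counted, a choice made with the data already seen, 5 of the 24 did, where 21.1% of all regions in gene windows did. The other 3 were the summits at 799 bp of elt-1, 3967 bp of elt-3 and 10792 bp of egl-18. Differences between these small counts and the shares of all regions were not tested. A gene annotated as non-coding stood within 100 bp of 4 of the 24 summits, all at egl-18 (-1222, 3162, 4673 and 6377 bp). Of all 30000 regions 10.2% had one, and of the IDR set 49.1%. For tRNA and snoRNA genes the count was 0 of 24, where 1.77% of all regions and 36.2% of the IDR set had one.

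Sites for GATA factors themselves stood at some of these regions. GATAA, on either strand, was present within 50 bases of 5 of 24 summits (20.8%, Clopper-Pearson 95% interval 7.13 to 42.2%), against 16.4% of all 30000 regions and 10.9% of the IDR set. The longer TGATAA, which contains it, was present in 2 of 24 (8.33%, 1.03 to 27%), against 6.23% and 3.03%. These shares are near those of regions in general, and the intervals, which cover counting error over regions of few loci, are wide. The 2 windows with TGATAA are shown because each holds 3 copies of GATAA, counting both strands, as 0.217% of all regions do. They were noticed after the sequences had been seen. Capitals mark GATAA and TGATAA on either strand.
elt-1 summit at 799, chrIV:9615744-9615844: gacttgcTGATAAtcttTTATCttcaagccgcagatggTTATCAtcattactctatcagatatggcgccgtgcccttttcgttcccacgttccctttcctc
egl-18 summit at 2088, chrIV:1904360-1904460: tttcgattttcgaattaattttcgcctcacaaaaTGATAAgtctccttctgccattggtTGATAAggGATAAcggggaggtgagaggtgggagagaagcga
Both lie in introns. For 799 bp of elt-1 the matched regions ranked 8324 in replicate 1 and 10645 in replicate 2, the latter with its summit at 659 bp. For 2088 bp of egl-18 they ranked 3504 in replicate 1, with its summit at 2013 bp, and 6117 in replicate 2. The summits at 659 and 2013 bp lie outside the sequences shown.

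The forms of the CHE-1 site searched, GAAACC and GAAGCC, were rare in these windows, as in regions in general. GAAACC was present in 1 of 24 windows (4.17%, 0.105 to 21.1%), against 4.85% of all regions and 3.79% of the IDR set. GAAGCC was in 0 of 24 (0 to 14.2%), against 3.89% of all regions and 2.53% of the IDR set. The window with GAAACC, in capitals, is that of elt-3.
elt-3 summit at 3967, chrX:13938791-13938891: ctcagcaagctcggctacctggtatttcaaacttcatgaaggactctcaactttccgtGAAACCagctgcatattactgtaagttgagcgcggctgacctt
AGTATAC, the site known for the MED factors, was in 0 of 24 windows and in 0.353% of all regions. CGCACA, the 6-mer that led among those more frequent at IDR summits in earlier results of these data, was in 0 of 24 and in 3.60% of all regions, and in 13.3% of the IDR set. The median share of G and C was 44.6% in the windows of the family, 40.6% over all regions and 50.5% in the IDR set. Among the 7 strong regions it ran from 40.6 to 59.4%.

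Each of the 14 inputs to gut specification in the list, which include skn-1 and Wnt pathway genes, had a region in the list of both, where 60.2% of all genes did, and 2 of 14 had one in the IDR set, where 4.29% did. The list had a median of 4 regions per gene, where all genes had a median of 1, and per kb of window it had 0.535 against 0.309. The IDR region of sys-1, which codes for a beta-catenin, had a score of 162 (rank 469) and ranks 478 and 645 in the replicates, but its summit is nearest to the start of eif-3.C. That of src-1, a kinase gene, had a score of 231 (rank 277) and lay within 100 bp of a tRNA gene, nearest to the start of Y73E7A.3. Of the 3 other genes with a GATA-type finger, egl-27 and lin-40 had regions and elt-4, a small relative of elt-2, had none. The highest of egl-27 had a score of 125 (rank 820), with ranks 2673 and 591, and its summit, 9592 bp from the start of egl-27, is nearest to the start of tbc-6.

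The following counts stand against 60.2% of all genes in the list of both and 4.29% in the IDR set. Among genes acting in the same tissues, 10 of 12 epidermal regulators had a region in the list of both (median 4.5 per gene) and 0 an IDR region. The highest was at nhr-25, a nuclear receptor gene (score 74.6, rank 3983, ranks 10335 and 5569), with the non-coding gene F11C1.15 within 100 bp. Epidermal effector genes had 15 of 18 (median 2) and 2 IDR regions, at ajm-1 (score 143, rank 594), which codes for a junction protein, and ifa-3 (score 154, rank 509), an intermediate filament gene. Both of these lay within 100 bp of a tRNA gene. Intestinal effector genes had 14 of 20 (median 1) and 2 IDR regions. The one at pgp-1, a transporter gene (score 239, rank 260), lay at a tRNA gene and nearest to the start of cul-6. The one at ftn-1, a ferritin gene (score 136, rank 673), lay 1186 bp upstream of it with no non-coding gene within 100 bp. Mesoderm and posterior lineage regulators had 9 of 10 (median 2.5) and 0 IDR regions, with the highest at pha-4, the pharynx selector gene (score 92.6, rank 1894). The non-coding gene F38A6.9 lay within 100 bp of that summit. Per kb of window the intestinal effector genes had 0.259 and the epidermal effector genes 0.477 regions, and the epidermal regulators 0.550, against 0.309 over all genes. The mesoderm and posterior lineage regulators had 0.583 and the other genes with a GATA-type finger 0.921. A density above that of all genes was thus not particular to epidermal genes. The gut GATA genes, at 0.0478 per kb, were below all of these lists, and these differences were not tested.

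By the highest rank in each replicate, the genes most like egl-18 (704 in replicate 1 and 572 in replicate 2) were spk-1 and rheb-1 on chromosome III, both at 776 and 566, and R08D7.4 on the same chromosome at 724 and 526. The summed difference in log10 rank was 0.0469 for spk-1 and rheb-1 and 0.0486 for R08D7.4, over 2 replicates. With equal ranks in each replicate on the same chromosome, spk-1 and rheb-1 may stand for the same regions. For egl-18 those ranks belong to different regions, the one at -1217 bp in replicate 1 and the one at 3162 bp in replicate 2.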

How the data were processed

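The deposited files are lists of regions without read counts, so the depth of the libraries is unknown. Per the accompanying text notes, the authors called 1 list for each replicate and 1 on both together, each against a control and with background regions kept, and derived the IDR set from them. The peak caller, the aligner, their versions and the IDR threshold were left unstated (not given in the sources used here). Column 7, the deposited signal, is a value the authors set against a control, used only to rank and describe regions within a list. The deposited score of column 9 has no stated scale and served only as another ranking. Build ce11 was used, with WBcel235 Ensembl release 115 genes and the RefSeq sequence of the same assembly. Lists in ce10 were left out. Positions count from 1.

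A replicate region matched when it overlapped by at least 1 bp with its summit within 200 bp. Motifs were sought on either strand in the 50 bases to each side of a summit. Assignment, matching and motif search were tested on simulated data. The members and lists were chosen with earlier results of these data known. Named beyond the members are the genes of each pathway list with an IDR region, or else the one with the highest region, and the 3 genes most like the leading member. No test was made, since there is 1 group. Intervals cover counting error only. Work was done in Python 3.11.15 with pandas 2.3.3, numpy 2.4.6, matplotlib 3.10.9 and scipy 1.17.1.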

Additional observations from a re-analysis of the deposited data

How the results depend on the processing

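Of 62 alternative values, 51 stayed within 1.5 times the reported count or within its 95% interval, and 11 did not. The count of genes with an IDR region, 1, became 0 with 1 kb upstream or with the higher-ranked 0.5 of the set, since the egl-18 summit lies 1222 bp upstream at rank 675, and 2 with 2 times as many regions. It was 1 without either replicate, through different regions of egl-18. The 24 regions became 7 in the upstream part of the windows alone, 28 without replicate 1 and 34 without replicate 2. Without egl-18 and elt-6, an alternative added after the data had been seen, 5 regions, 3 genes and 1 region of rank 5000 or better were left. A limit of rank 10000 gave 12 strong regions in place of 7. The 2 summits just upstream of a start were 1 without replicate 1, 2 without replicate 2, and 5 when any transcript start counted, which was also added later. GATAA was present in 45.8% of windows with 100 bases to each side, the longer window holding more sequence. The intervals of the motif shares are wide, so a share could change much and still count as within. With the longer window TGATAA went from 8.33% to 25% and CGCACA from 0 to 8.33%, and both counted so. Depth is unknown, so no region can be called absent.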
